A study of Mus musculus with 10 samples.

Results

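Growth factors of the EGF family and their ErbB receptors were followed in skin wounds of diabetic mice given a microRNA-132 (miR-132) mimic or a control mimic. The 10 genes named for this were the ligands Hbegf, Areg, Ereg, Tgfa, Btc, Epgn and Nrg1 and the receptors Egfr, Erbb2 and Erbb3. They were found by gene symbol in the array's platform annotation, with only features that carry a single gene used and the feature with the highest mean over all 10 arrays kept for each gene. A feature was found for 9 of the 10, among 30743 genes with such a feature, and all 9 were among the 17635 genes tested. Areg, which encodes amphiregulin, was not analysed here.

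The miR-132 group held 5 mice and the control group 5 others. All 10 mice were db/db males of the BKS(D)-Leprdb/JOrlRj genotype on a C57Bl/6J background, aged 11 weeks, which lack a working leptin receptor and are obese and hyperglycaemic. Every mouse got 2 full-thickness dorsal wounds from a 4 mm punch and, at 4 points around each wound edge, 0.5 nmol of mimic in 100 µl with the carrier MaxSuppressor In Vivo RNA-LANCEr II. Both groups were also given buprenorphine for pain relief. Wound-edge biopsies of day 6 gave total RNA, of which 150 ng per sample went to a Clariom D array. Both groups were thus diabetic, wounded and injected, no healthy or unwounded skin is set beside them here, and the labels do not say whether the wounds of a mouse were combined.

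EGF family ligands are made as membrane-bound precursors, cut loose by ADAM proteases, and bind ErbB receptors, which pair up and switch on the Ras-MAP kinase, PI3-kinase and STAT3 routes. In epidermis, keratinocytes make several of these ligands and respond to them, and the EGF receptor drives their migration and proliferation at a wound edge. Hbegf has been reported in human keratinocytes as a direct target of miR-132, a microRNA that pairs with messenger RNAs through its seed.

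The sequence of the supplied microRNA is shown because the seed decides which messages it can pair with. It was taken from RefSeq, build GRCm38.p6, with bases 2 to 8, the seed, in capitals, beside that of its neighbour on the plus strand of chromosome 11, which carries the same seed.
mmu-miR-132-3p: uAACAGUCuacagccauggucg
mmu-miR-212-3p: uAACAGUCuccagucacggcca
The mature miR-132-3p lies at chr11:75173723-75173744 and miR-212-3p at chr11:75173443-75173464. Target sites in the members' messages were not analysed here. The arrays carry a feature for Mir132, the gene of the endogenous microRNA, with a level of 3.38 ± 0.41 log2 in miR-132 wounds and 3.21 ± 0.25 log2 in control wounds (SD, n = 5 each). That is under the level of 4.17 required for testing, and the feature gives no measure of the injected mimic.

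Hbegf, Tgfa, Nrg1 and all 3 receptors averaged lower in miR-132 wounds, whereas Epgn, Ereg and Btc lay close to the control level. No member passed the test after adjustment, and neither did any other gene. The fit (limma on log2 signal, two-sided, Benjamini-Hochberg over 17635 genes, threshold 0.05) called 0 members and 0 genes in all, 0% of those tested. At an unadjusted p under 0.05, limma gave 2 of the 9 members lower, Hbegf and Egfr, beside 990 genes lower, 5.61% of all tested. It gave 0 members higher, beside 436 genes higher, 2.47%. The averages of 8 of the 9 members were lower, with a median difference of -0.50 log2. Over all genes tested, 53.6% were lower, with a median difference of -0.016 log2. The 6 ligands had a median of -0.22 log2 and the 3 receptors one of -0.55 log2. With a stricter level filter (mean above 5.66 log2, which Btc missed), the median was -0.52 log2 for members and -0.066 log2 for all genes.

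**Figure D1:**
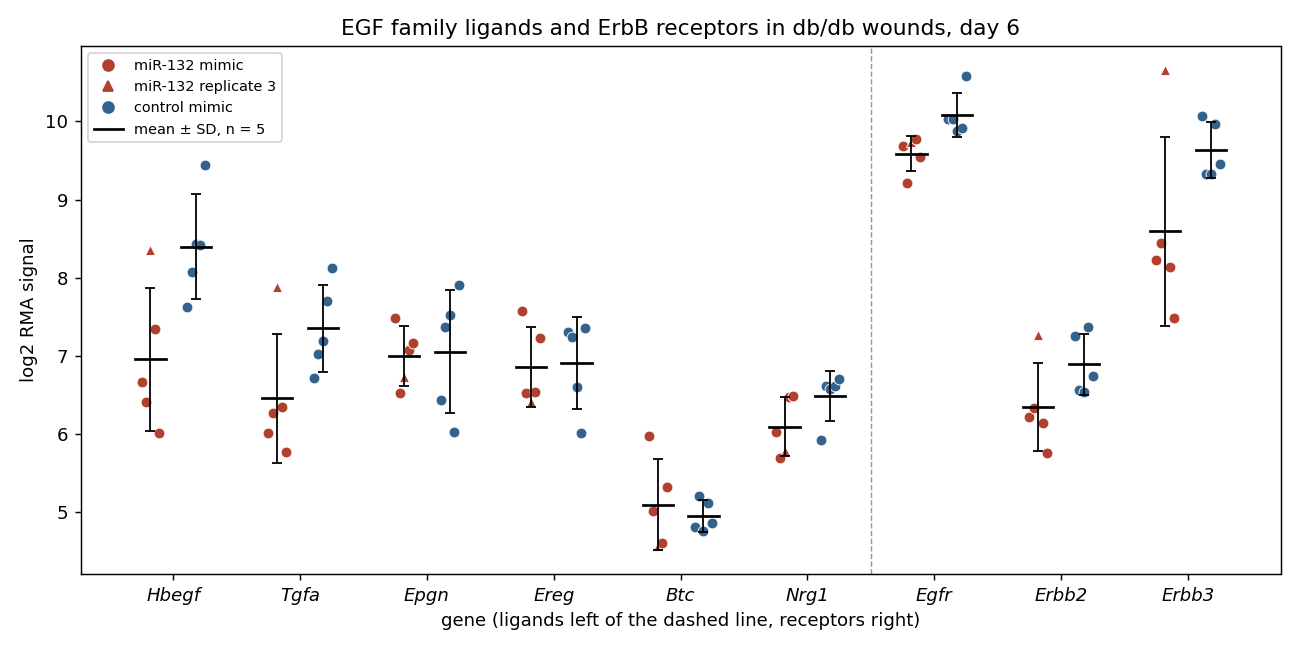
Log2 RMA signal (vertical axis) of the 6 ligands and 3 receptors (horizontal axis) on every array, miR-132 wounds in red on the left of each pair and control wounds in blue on the right, with bars for mean and SD (n = 5 each). Egfr is the gene whose groups do not overlap, and miR-132 replicate 3 (triangle) stands above the other miR-132 arrays for Hbegf, Tgfa, Erbb2 and Erbb3.

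Hbegf encodes heparin-binding EGF-like growth factor, a ligand of the EGF receptor and ErbB4 that keratinocytes release at wound edges. Its signal in miR-132 wounds was 6.66, 6.41, 8.35, 7.34 and 6.01 log2 on replicates 1 to 5, against 7.63, 8.07, 8.43, 8.42 and 9.44 log2 in control wounds. All 5 miR-132 arrays lay below the control mean, 4 of them below the lowest control array, and replicate 3 lay inside the control range. The means were 6.95 ± 0.92 log2 with miR-132 and 8.40 ± 0.67 log2 with control mimic (SD, n = 5 each), a difference of -1.44 log2, or 2.72-fold lower. The 95% interval of this difference ran from -2.48 to -0.41 log2 (SE 0.46). The unadjusted limma p was 0.0113 and the adjusted p 0.596, and an exact permutation test over all splits of the arrays, two-sided, gave p = 0.0238.

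Tgfa encodes transforming growth factor alpha, another ligand of the EGF receptor that keratinocytes make for themselves. It measured 6.01, 6.27, 7.88, 6.34 and 5.77 log2 in miR-132 wounds, against 6.72, 7.02, 7.19, 7.70 and 8.12 log2 in control wounds. Again 4 miR-132 arrays lay below every control array, and replicate 3 was above the control mean. The difference was -0.90 log2 (SE 0.41, interval -1.81 to 0.01), with a limma p of 0.0530 and an adjusted p of 0.623. The exact permutation test, two-sided, gave p = 0.0873.

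The other EGF receptor ligands did not share this order. Epgn, which encodes epigen, measured 7.49, 6.52, 6.73, 7.08 and 7.16 log2 in miR-132 wounds, against 6.44, 7.37, 7.52, 6.02 and 7.90 log2 in control wounds. Ereg, which encodes epiregulin, measured 7.57, 6.52, 6.41, 6.54 and 7.23 log2 in miR-132 wounds, against 7.31, 7.24, 6.60, 6.01 and 7.36 log2 in control wounds. The groups overlapped for both genes, and the control arrays of Epgn were the more widely spread, with an SD of 0.38 log2 with miR-132 and 0.79 log2 with control mimic (n = 5 each). The differences were both -0.05 log2, with intervals of -0.85 to 0.74 for Epgn and -0.76 to 0.66 for Ereg. These intervals still hold sizeable differences either way. Limma's adjusted p was 0.981 for both. Their sign turned positive on further quantile normalization, at 0.0091 for Epgn and 0.02 for Ereg.

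Btc, which encodes betacellulin, measured 5.97, 5.01, 4.56, 4.60 and 5.32 log2 in miR-132 wounds, against 4.81, 5.21, 4.75, 5.12 and 4.86 log2 in control wounds. It was the only member of the 9 with a higher average in miR-132 wounds, where its spread enclosed all control arrays. The difference was 0.14 log2 (interval -0.42 to 0.70, limma adjusted p = 0.905), and -0.08 log2 without miR-132 replicate 1.

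Nrg1 encodes neuregulin 1, which binds ErbB3 and ErbB4 in place of the EGF receptor. It measured 6.02, 5.69, 5.78, 6.47 and 6.49 log2 in miR-132 wounds, against 5.92, 6.61, 6.58, 6.61 and 6.70 log2 in control wounds. On 4 of the 5 control arrays it was above every miR-132 array, and control replicate 1 was the exception. The difference was -0.39 log2 (interval -0.85 to 0.06, limma p = 0.0822, adjusted p = 0.653), and the exact permutation test, two-sided, gave p = 0.0714. With a second, dimmer Nrg1 feature averaged in, it was -0.14 log2.

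Among the receptors, Egfr, the receptor for most of these ligands, had the tightest groups. It measured 9.68, 9.21, 9.74, 9.77 and 9.55 log2 in miR-132 wounds, against 10.03, 10.03, 9.88, 9.92 and 10.58 log2 in control wounds. Every miR-132 array lay below every control array. Groups without overlap were found for 1 of 9 members in this direction, beside 114 genes, 0.646% of those tested, and for 0 members in the other direction, beside 50 genes, 0.284%. The means were 9.59 ± 0.23 log2 with miR-132 and 10.09 ± 0.28 log2 with control mimic (SD, n = 5 each), a difference of -0.50 log2, or 1.41-fold lower, with an interval of -0.88 to -0.11. Limma's unadjusted p was 0.0166 and its adjusted p 0.596. The exact permutation test, two-sided, gave p = 0.00794, the smallest that 5 against 5 arrays allow.

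Erbb3 encodes a receptor with a weak kinase that binds neuregulins and recruits PI3-kinase once its partner has phosphorylated it. It measured 8.23, 8.45, 10.66, 8.14 and 7.49 log2 in miR-132 wounds, against 10.07, 9.33, 9.33, 9.97 and 9.46 log2 in control wounds. On 4 miR-132 arrays Erbb3 was well below the lowest control array, while on replicate 3 it was above the highest. The difference was -1.04 log2, or 2.05-fold lower (SE 0.52, interval -2.19 to 0.12), with a limma p of 0.0731 and an adjusted p of 0.641. The exact permutation test, two-sided, gave p = 0.119.

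Erbb2 encodes the partner receptor that binds no known ligand of its own. It measured 6.22, 6.33, 7.27, 6.14 and 5.76 log2 in miR-132 wounds, against 7.25, 6.56, 6.54, 7.37 and 6.74 log2 in control wounds. The order was that of Erbb3, with 4 miR-132 arrays below all controls and replicate 3 among the highest controls. The difference was -0.55 log2 (SE 0.28, limma p = 0.0797, adjusted p = 0.649), and the exact permutation test, two-sided, gave p = 0.111.

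A single array, miR-132 replicate 3, thus decided the size of several differences. Averaged over the 3 receptors, it stood 0.70 log2 above the mean of all 10 arrays, while the other 4 miR-132 arrays stood at -0.92 to -0.48 log2. Erbb3 and Erbb2 carried this, since Egfr on replicate 3, at 9.74 log2, was below its mean of 9.84 log2 over all arrays. That array was singled out for its values, so leaving it out was bound to enlarge the differences of members high on it. The fit without it is therefore no separate support for them. Without it, Hbegf differed by -1.79 log2 (adjusted p = 0.0969), Tgfa by -1.25 log2 (0.102) and Egfr by -0.54 log2 (0.248), all p from limma. Erbb2 then differed by -0.78 log2 (adjusted p = 0.148), and Erbb3 by -1.55 log2, 2.94-fold lower, with an adjusted p of 0.0501 that still missed the threshold. In that fit 0 members passed, beside 52 genes lower, 0.295% of those tested. At an unadjusted p under 0.05 it gave 5 members lower, beside 1840 genes, 10.4%. Leaving out miR-132 replicates 2 and 5 instead, the arrays with the narrowest signal ranges, left 0 members at an unadjusted p under 0.05, beside 401 genes lower, 2.27%, of 1016 genes in either direction. Hbegf then differed by -0.95 log2 and Egfr by -0.36 log2, both with a limma adjusted p of 0.824. The spike-in controls added at hybridisation stood at 10.57 to 10.98 log2 on miR-132 arrays and 10.43 to 10.61 log2 on control arrays, and with them as a covariate Hbegf differed by -1.94 log2 and Egfr by -0.67 log2, both with a limma adjusted p of 0.531. Their part in the differences was not tested further.

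**Figure D2:**
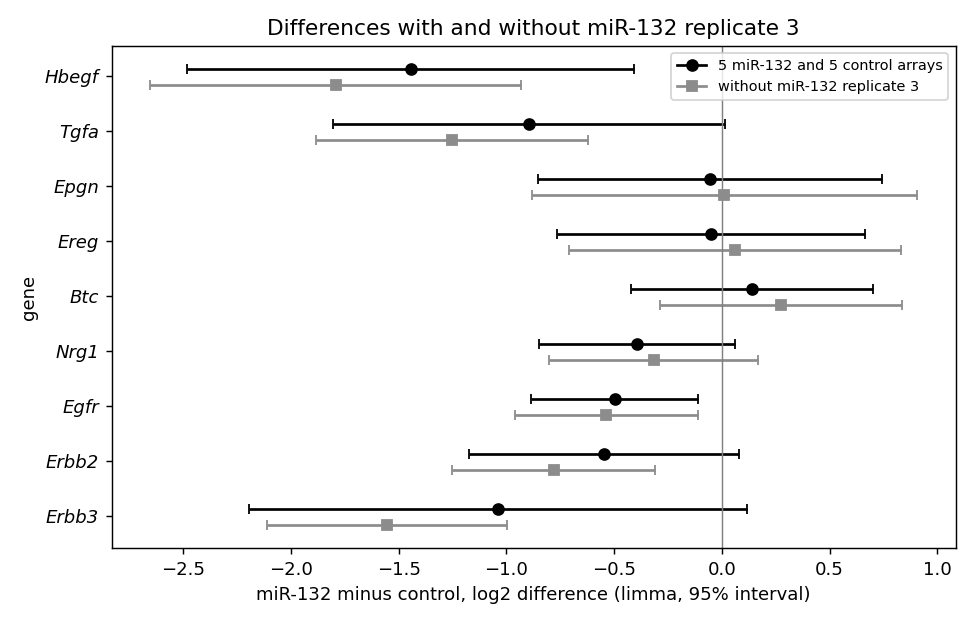
Difference between miR-132 and control wounds in log2 units (horizontal axis) for the 9 genes, with limma's 95% interval, over all 10 arrays (black circles) and without miR-132 replicate 3 (grey squares). The intervals of Hbegf and Egfr lie below 0 in both fits, and those of Tgfa, Erbb2 and Erbb3 only without replicate 3. Replicate 3 was singled out for its values.

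The biopsies are bulk tissue, in which fewer cells of a type and less RNA per cell cannot be told apart. Cell type markers were therefore set beside the members. Features at the upper limit of the scale have only a bound. The basal, differentiated and neutrophil lists are thus given without Krt5, Krt14, Krt1, Krt10, S100a8 and S100a9, which reached it. The other 4 basal keratinocyte markers all averaged lower with miR-132, with a list mean of 8.05 to 9.10 log2 on miR-132 arrays and 8.56 to 9.42 log2 on control arrays. Of 4 measured wound-activated keratinocyte markers, 3 averaged lower and Krt16 stood at the upper limit of the scale on every array. With Krt16 kept in, the mean of all 4 was 14.82, 14.60, 16.51, 15.64 and 14.64 log2 in miR-132 wounds, against 15.82, 16.16, 16.43, 16.30 and 16.58 log2 in control wounds. Without Krt16 the list mean ran from 12.83 to 15.37 log2 on miR-132 arrays and 14.44 to 15.47 log2 on control arrays. That was a difference of -1.35 log2. The same miR-132 replicate 3 that was high for Hbegf, Tgfa, Erbb2 and Erbb3 was the highest miR-132 array here too. It was also the highest for the basal list with Krt5 and Krt14 kept in, at 12.71 log2. For other lists it was the lowest miR-132 array: adipocytes (8.09 log2), endothelium (6.61), sebaceous gland (7.07), hair follicle (5.79), mast cells (6.78) and T and NK cells (4.17). Which of these goes with its member values was not tested. The other 4 differentiated keratinocyte markers were lower for 2 and higher for 2, with a mean difference of -0.18 log2. The other 4 neutrophil markers all averaged lower, with list means that overlapped, 7.69 to 8.51 log2 on miR-132 arrays and 7.41 to 10.32 log2 on control arrays. The 6 adipocyte markers all averaged higher, also with overlap, 8.09 to 12.16 log2 on miR-132 arrays and 8.01 to 10.90 log2 on control arrays. Skeletal muscle markers, 6 in number, all averaged lower, by -0.54 log2 as a list. Their list means overlapped too, 10.38 to 13.46 log2 on miR-132 arrays and 10.53 to 13.38 log2 on control arrays. Macrophage markers differed by 0.05 log2. Schwann cells also carry Erbb3, but their 4 measured markers averaged 4.16 to 4.37 log2 in miR-132 wounds and 4.07 to 4.19 log2 in control wounds, near the level required for testing.

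Measured against 4 basal keratinocyte markers within each array (Trp63, Itga6, Itgb4 and Col17a1, those never at the upper limit, a comparison added after the values were seen), every member is shifted by the same amount, since the same marker mean is subtracted on each array. These 4 averaged 8.52 ± 0.39 log2 in miR-132 wounds and 8.93 ± 0.33 log2 in control wounds (SD, n = 5 each). Hbegf minus these markers was -1.57 ± 0.80 log2 in miR-132 wounds and -0.53 ± 0.74 log2 in control wounds, a difference of -1.04 log2 (exact permutation test, two-sided, p = 0.0873). Egfr minus these markers was 1.07 ± 0.49 log2 in miR-132 wounds and 1.16 ± 0.34 log2 in control wounds, a difference of -0.09 log2 (exact permutation p = 0.746). For Erbb3 the difference was -0.63 log2 (p = 0.222), for Tgfa -0.49 log2 (p = 0.238) and for Erbb2 -0.14 log2 (p = 0.643), each by the same exact permutation test. The other 4 ligands were at or above the control level on this scale, with differences of 0.55 log2 for Btc (exact permutation p = 0.183), 0.36 log2 for Ereg (p = 0.389), 0.35 log2 for Epgn (p = 0.405) and 0.01 log2 for Nrg1 (p = 0.960). None of these 9 exact permutation tests, which were not adjusted for their number, gave a p under 0.05. The result on this scale depends on the markers chosen. The basal markers differed by -0.405 log2 between groups, and the wound-activated markers without Krt16 by -1.35 log2. Members were not measured against the wound-activated markers. The part of keratinocyte content in the members' levels was not tested otherwise.

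**Figure D3:**
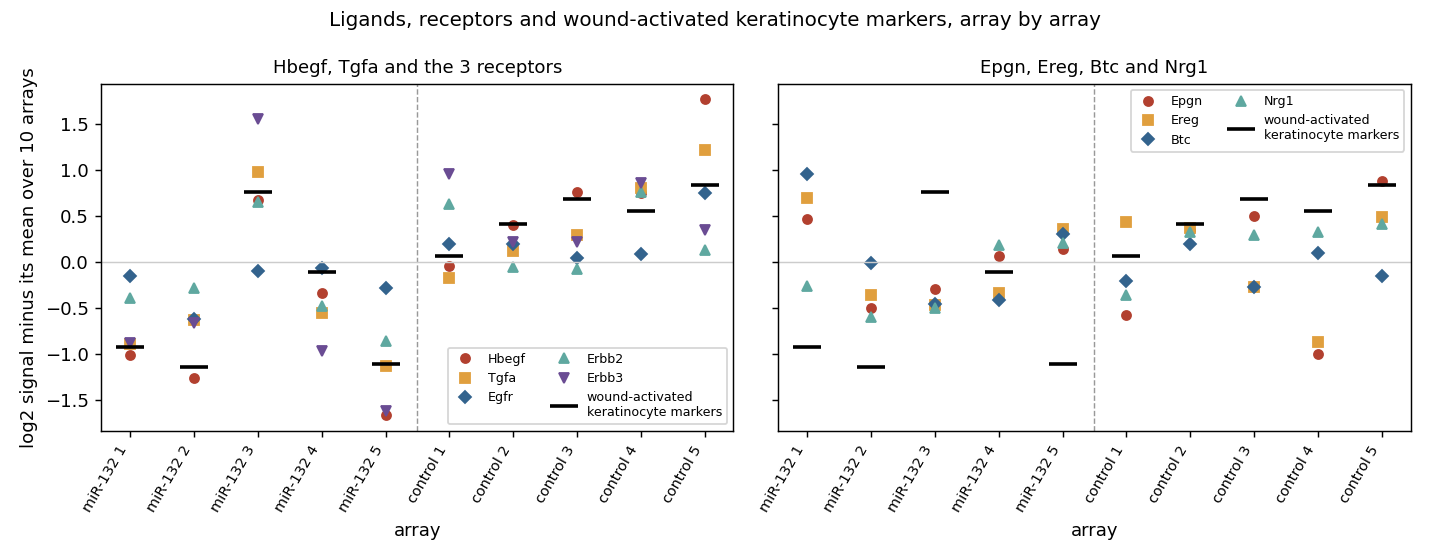
Log2 signal minus its mean over 10 arrays (vertical axis) on each array (horizontal axis, miR-132 left of the dashed line, control right), for Hbegf, Tgfa and the 3 receptors (left panel) and the other 4 ligands (right panel), with the mean of 4 wound-activated keratinocyte markers as black bars. On miR-132 replicate 3 the markers, Hbegf, Tgfa, Erbb2 and Erbb3 are all above their mean, while Egfr, Epgn, Ereg, Btc and Nrg1 are below theirs. The 4 markers include Krt16, which stood at the upper limit of the scale on every array.

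The genes whose array profile lay nearest to a member's were looked up for the ligand and the receptor with the largest spread, by root mean square distance over 10 arrays after each gene's mean was subtracted. Nearest to Hbegf were Ovol1, a transcription factor of epidermal differentiation, at 0.33 log2, Mxd1, a partner of MAX that opposes MYC, at 0.36, and Urah, an enzyme of urate breakdown, at 0.37. The median distance of all 17626 other genes tested from Hbegf was 1.03 log2. Nearest to Erbb3 were the adhesion receptor Nectin1 at 0.23 log2, the receptor phosphatase Ptprf at 0.24 and the desmosome protein Pkp1 at 0.25, against a median of 0.97. Pkp1 itself measured 12.42 ± 1.13 log2 in miR-132 wounds and 13.61 ± 0.25 log2 in control wounds (SD, n = 5 each).

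Promoters of 6 of the 10 genes (Epgn, Areg, Btc, Tgfa, Egfr and Erbb2) were in the RefSeq promoter table of build GRCm38.p6, which runs from 250 bases before to 50 after the start. Those of Tgfa, which averaged lower, and Epgn, which lay close to the control level, are shown because they differ in composition, with motif matches in capitals.
Tgfa, chr6:86194972-86195271, plus strand: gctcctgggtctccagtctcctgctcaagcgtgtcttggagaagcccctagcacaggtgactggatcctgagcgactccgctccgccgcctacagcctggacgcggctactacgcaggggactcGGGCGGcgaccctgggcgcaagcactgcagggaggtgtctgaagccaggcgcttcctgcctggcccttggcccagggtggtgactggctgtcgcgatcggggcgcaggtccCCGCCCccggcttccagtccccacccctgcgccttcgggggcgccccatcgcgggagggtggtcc
Epgn, chr5:91027267-91027566, plus strand: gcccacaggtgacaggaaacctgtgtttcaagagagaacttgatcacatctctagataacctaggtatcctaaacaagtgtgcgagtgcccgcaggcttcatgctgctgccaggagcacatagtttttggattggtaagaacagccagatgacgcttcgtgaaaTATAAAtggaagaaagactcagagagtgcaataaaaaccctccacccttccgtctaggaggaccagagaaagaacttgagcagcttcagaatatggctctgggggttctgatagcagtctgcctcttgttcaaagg
The Tgfa promoter was 70.7% G and C and held GGGCGG, the GC box, once on each strand, while that of Epgn was 47.3% G and C and held TATAAA, the TATA box, and no GC box. The start is the one the promoter table uses. The RefSeq span of Tgfa opens before that start, at chr6:86195038, so much of its stretch lies within the gene. The span of Epgn opens at its start, chr5:91027517, so the 2 stretches are not placed alike. The promoters of Areg, Btc, Egfr and Erbb2 were 59.3%, 60.3%, 62.3% and 66.0% G and C. Those of Btc and Erbb2 held none of the motifs searched. The median over 32851 promoters was 52.7%. Of 6 motifs searched on both strands, the GC box, added after the first 5, was in the promoters of Areg, Egfr and Tgfa and in 35.7% of all promoters. The TATA box was in those of Areg and Epgn and in 13.6% of all. TGACGTCA (CRE) was in that of Areg and in 1.79% of all. The AP-1 site TGANTCA (7.81% of all), the NF-kB pattern GGGNNTTCC (5.82%) and the pattern used for the CArG box (4.16%) matched none of the 6. The CArG pattern left positions in its core open to any base. Each motif was searched as a fixed pattern, and other forms of these sites were not searched. Whether the 6 promoters lack NF-kB sites or CArG boxes was therefore not settled. A match describes the letters only.

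Around the ligands and receptors, 4 lists of genes of the same pathway were examined, and none of their genes passed the adjusted test. Their counts stand beside 53.6% of all genes tested with a lower average and 5.61% lower at an unadjusted p under 0.05. These shares depended on signal level. With the stricter level filter, 933 of 10298 genes had an unadjusted limma p under 0.05, and 91.6% of them were lower. The lists were not set against genes of like level. Of 11 sheddases and partners, 10 averaged lower, with a median difference of -0.17 log2 and 4 lower at an unadjusted p under 0.05, beside 5.61% of all genes. Furin, a convertase that activates ADAM proteases, differed by -0.62 log2 (limma adjusted p = 0.596). Without miR-132 replicate 3 it differed by -0.75 log2 with a limma adjusted p of 0.0445, the 1 gene of these lists to pass in that fit. Once quantile normalization was added to that fit, 0 genes passed, Furin included. Rhbdf2 and Rhbdf1, the iRhoms that carry ADAM17 to the cell surface, differed by -0.45 log2 and -0.29 log2, both with a limma adjusted p of 0.596. Adam17 itself, the sheddase of Hbegf and Tgfa, differed by -0.27 log2 (limma adjusted p = 0.735).

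Of 15 feedback inhibitors and degradation factors, 12 averaged lower, with a median of -0.07 log2 and 1 at an unadjusted p under 0.05, close to the 5.61% of all genes. Ptprk, a phosphatase that acts on the EGF receptor, differed by -0.16 log2, Rnf41, the ubiquitin ligase of ErbB3, by -0.17 log2 and the phosphatase Ptpn1 by -0.36 log2, all with limma adjusted p of 0.596 to 0.653. Of 15 measured relay genes, 14 averaged lower, with a median of -0.14 log2 and 3 lower at an unadjusted p under 0.05, beside 5.61% of all genes. These were the transcription factor gene Stat3 at -0.66 log2, Plcg1, a phospholipase, at -0.45 log2 and the MAP kinase kinase Map2k2 at -0.22 log2, all with a limma adjusted p of 0.596.

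Genes known to be induced by EGF receptor signals in keratinocytes had a median difference near that of the members. Of 17 measured, 15 averaged lower, 1 averaged higher and Krt16 stood at the upper limit throughout, with a median of -0.52 log2 and 5 lower at an unadjusted p under 0.05, beside 5.61% of all genes. Phlda1, an early response gene, differed by -0.52 log2, the urokinase gene Plau by -0.65 log2 and the gelatinase gene Mmp9 by -1.34 log2, each with a limma adjusted p of 0.596. Mmp9 is also a neutrophil gene, and the neutrophil markers averaged lower as given above. Differences in the list ran from -1.45 log2 for Krt17 to 0.02 log2 for Dusp6. Dusp4 differed by -0.04 log2, Sphk1 by -0.03 log2 and Myc by -0.12 log2. Krt16 and Krt17 are also among the wound-activated keratinocyte markers, so the results of these lists are not separate. Whether the list follows receptor signals here was not tested. Of the remaining EGF family, Nrg4, a ligand of ErbB4, was at 5.18 log2 in miR-132 wounds and 4.96 log2 in control wounds (limma adjusted p = 0.639). Egf, Nrg2, Nrg3 and Erbb4 were all under the level required for testing.

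**Figure D4:**
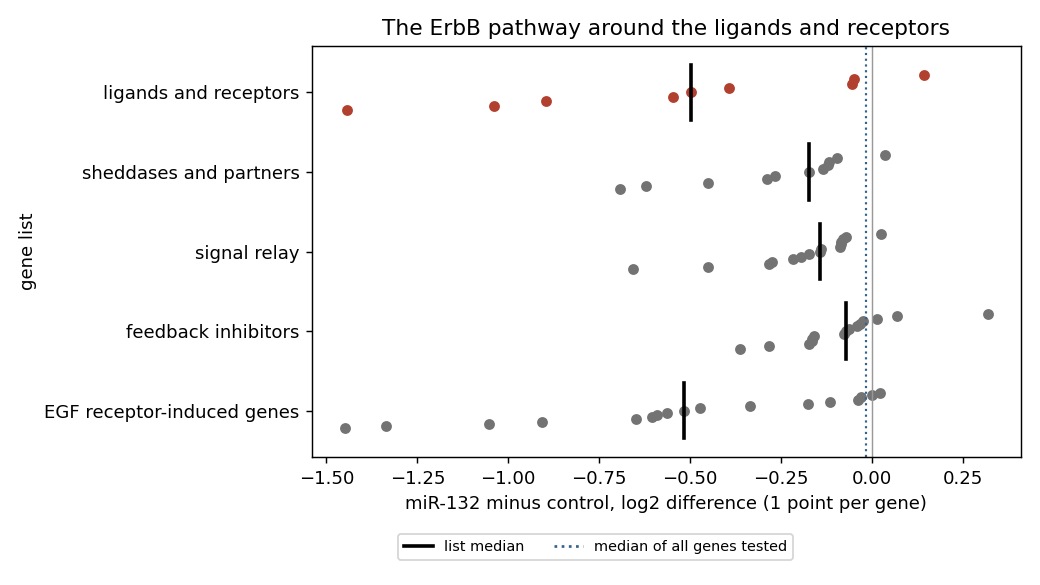
Difference between miR-132 and control wounds in log2 units (horizontal axis), 1 point per gene, for the 9 ligands and receptors (top row) and 4 pathway lists, with list medians as black bars and the median of all genes tested as a dotted line. The medians are -0.50 for the ligands and receptors, -0.17, -0.14 and -0.07 for sheddases, relay and feedback genes, and -0.52 for EGF receptor-induced genes, and no gene passed the adjusted test.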

How the data were processed

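RNA of 10 wound-edge samples was measured on Affymetrix Clariom D arrays. The authors' values come from RMA in Affymetrix Expression Console 1.4, per the submitters' processing notes. RMA subtracts background, quantile-normalizes and combines probes. In the deposited values the arrays still differed in signal range. The span from a low to a high percentile ran from 4.41 log2 (miR-132 replicate 2) to 5.03 log2 (control replicate 1). The labels name no scale, and the deposited values were read as log2 signal because they end at 19.93, the log2 of 1000000, a limit no member reached. No source used here names the features' genome build.

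Of 72688 features, 31216 were paired with 1 gene, 1534 with several and 39938 are unnamed here. A gene entered the test when its 10-array mean exceeded 4.17, the median over features. The test was limma 3.58.1 in R 4.3.3 (lmFit, eBayes with an intensity trend, no covariates), checked on simulated data. The number of arrays limits precision, and p-values measure the spread between these 5 and 5 mice.

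The members and lists were chosen with earlier results of these data known. Genes named from a pathway list are its 3 with the smallest unadjusted p, with some exceptions. Adam17, Krt16, Krt17, Dusp4, Dusp6, Myc and Sphk1 were named beyond that rule after their values were seen. So were Erbb4 and the other EGF family genes under the tested level. Alternatives changed the level filter, normalization, variance model, array weights, replicate block, hybridisation covariate, features and the arrays included.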

Additional observations from a re-analysis of the deposited data

Results flagged for a closer look

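Among the 18 groups of 5 arrays (9 genes in 2 groups), 3 held an array that stood far from the other 4. Chance gives about 1 in 20 for a single group. The 18 groups share the same arrays and are not independent, so their count is not tested against that share. Tgfa was 7.88 log2 on miR-132 replicate 3, 1.54 above the next miR-132 array, within a group range of 2.11. Egfr was 10.58 log2 on control replicate 5, 0.55 above the next control array, within a range of 0.70. Nrg1 was 5.92 log2 on control replicate 1, 0.66 below the next control array, within a range of 0.78. Without control replicate 5, Egfr differed by -0.38 log2, and without control replicate 1, Nrg1 differed by -0.54 log2.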

How the results depend on the processing

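Hbegf kept its direction under all 22 alternatives (-1.94 to -0.95 log2), with an unadjusted limma p under 0.05 in 21, as did Egfr (-0.67 to -0.36 log2, 21). Tgfa (-1.25 to -0.61), Erbb3 (-1.55 to -0.62), Erbb2 (-0.78 to -0.35) and Nrg1 (-0.64 to -0.14) also kept theirs, with an unadjusted p under 0.05 in 6, 3, 3 and 4. No member passed the adjusted threshold under any of them. Members at an unadjusted p under 0.05, 2 in the fit reported, numbered 2 to 5 with 1 array left out (5 without miR-132 replicate 3, 4 without control replicate 1), 5 with array weights, 5 without miR-132 replicate 3 and with quantile normalization (chosen after seeing the data) and 0 without miR-132 replicates 2 and 5. Over all genes that count was 1426, against 2635 with no level filter, 933 with a stricter one, 949 to 2482 with 1 array left out (949 without control replicate 5, 2482 without miR-132 replicate 3), and 2592 without miR-132 replicate 3 and with quantile normalization. Genes past the adjusted threshold numbered 0 to 52 with 1 array left out, 52 without miR-132 replicate 3, and 0 once quantile normalization was added to that. Of the 1426, 69.4% were lower, against 51.9% with quantile normalization, 47.7% with median centring, 91.6% with the stricter level filter, 37.5% with no level filter and 39.5% without miR-132 replicates 2 and 5. The cause of these shifts was not tested.

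The sign turned for Ereg and Epgn in 8 alternatives each. Under quantile normalization the values were 0.02 and 0.0091, and without miR-132 replicate 3 as well 0.138 and 0.083. With 1 array left out, Ereg ran from -0.274 to 0.064, Epgn from -0.312 to 0.159 and Btc from -0.0775 to 0.275. With the hybridisation covariate, Epgn was -0.335 and Btc 0.541. Epgn was 0.05 without miR-132 replicates 2 and 5. Same-numbered arrays did not deviate together (correlations -0.030 to 0.165), so the numbers were not taken as a pairing. With the replicate number as a block, 1273 genes and 2 members had an unadjusted p under 0.05 by limma, and 0 genes passed the adjusted threshold.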
